A study of Curcuma longa with 2 samples.

Results

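The miR165/miR166 family was followed in small RNA from nanoparticles of Curcuma longa (turmeric) root, sequenced as 2 libraries of 1 group and called library 1 and library 2. No treatment, genotype or control was part of the design, the labels give neither plant age nor the number of preparations, and the spread between libraries may therefore be technical. Members were the lines of the deposited miRNA table named miR165 or miR166, which gave 16 lines and 11 of the 186 distinct sequences of the table. Reads of a sequence were summed over its lines. The entries used here summed to 96386 reads for library 1 and 72196 for library 2, which are totals of a miRNA list and not sequencing depth. Both libraries held reads of 5 of the 11 sequences, while 2 were seen in library 1 alone, 1 in library 2 alone, and 3 were listed at 0 in both. The smallest value above 0 in the table was 2.5 reads, so a listed 0 may lie under a minimum of the list. RNA within particles and RNA that came along with them cannot be told apart.

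miR165 and miR166 are among the most conserved plant miRNAs and guide cleavage of mRNAs for class III homeodomain-leucine zipper (HD-ZIP III) transcription factors. In Arabidopsis these include PHABULOSA, PHAVOLUTA, REVOLUTA and CORONA, which set the upper side of leaves, maintain the shoot meristem and pattern the vascular tissue. In Arabidopsis roots the miRNA is made in the endodermis and moves into the stele, where its gradient against HD-ZIP III factors sets the type of xylem. The mature strand lies on the 3p arm of its hairpin and begins with U, the first base favoured by the slicer protein AGO1, while the 5p strand is usually degraded. The table writes U as T, as do the sequences here.

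The 8 sequences with reads are shown first, because the letters in which they differ, mostly near the 3′ end, are what separates the members. Each runs 5′ to 3′, and capitals mark bases 2 to 8, the seed. The names are working names.
Leading form: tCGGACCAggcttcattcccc
Shifted form: tCTCGGACcaggcttcattcc
Position 17 form: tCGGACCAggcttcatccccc
Position 21 form: tCGGACCAggcttcattccca
Asparagus-type form: tCGGACCAggcttcattttt
Melon-type form: tCGGACCAggcttcattttc
Short form: tCGGACCAggcttcattcc
5p form: gGAATGTTgtctggctcgagg

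Of these, 6 shared the seed CGGACCA and held 96.6% of the family's reads in library 1 and 96.6% in library 2. The shifted form starts 2 bases further upstream and so has the seed CTCGGAC, with 3.19% of the family in library 1 and 3.35% in library 2. The 5p form, from the opposite arm, has the seed GAATGTT. Plant miRNAs pair with targets over nearly their whole length, so seeds group the sequences here without standing for a target set.

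The leading form, deposited as rice miR166a-3p, had 4247 reads in library 1 and 3182 in library 2. It was identical to the registered rice sequence and held 93.4% of the family in library 1 (exact Clopper-Pearson 95% interval 92.6% to 94.1%) and 93.6% in library 2 (92.7% to 94.4%). The intervals overlap, and like all intervals here they cover counting error alone, because PCR copies were counted without molecular identifiers. Among all sequences with reads it ranked 10 by share, at 4.41% ± 0.00085 of listed reads (SD, n = 2). Its share in library 1 over library 2 gave a log2 ratio of -0.00050 with 1 read added to every value, and the interval from counting error ran from -0.067 to 0.066. The whole family held 4.71% ± 0.0058 of listed reads (SD, n = 2), with 4548.5 reads in library 1 and 3401 in library 2.

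**Figure D1:**
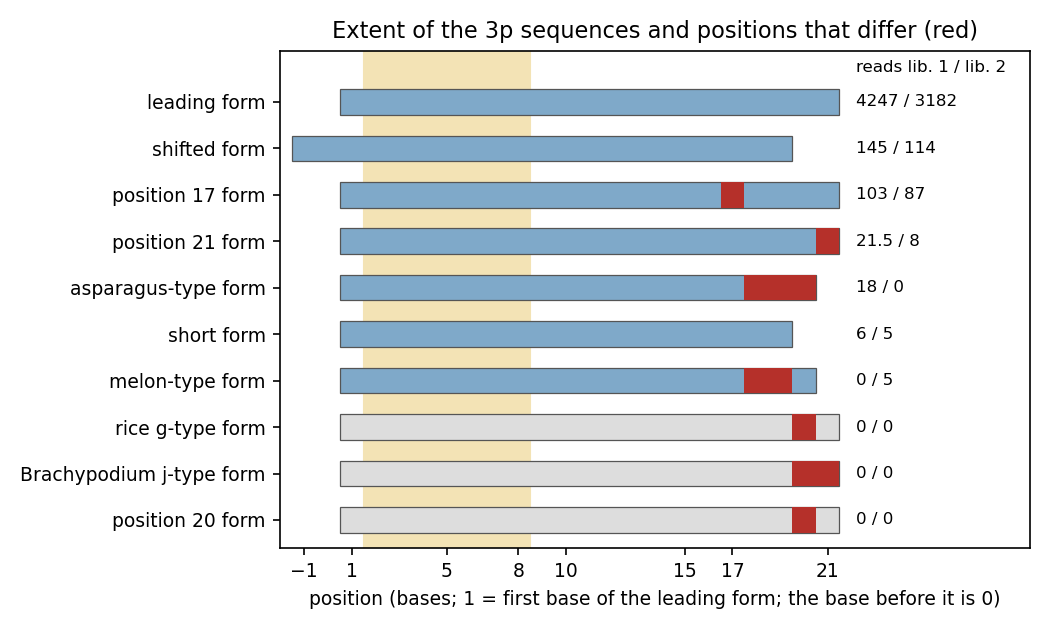
Extent of the 10 sequences from the 3p arm, in bases counted from the first base of the leading form, with red boxes where a sequence differs from it, a shaded band over bases 2 to 8 and the reads of both libraries at the right. Grey bars were listed at 0 in both libraries, and all differences within sequences that start at base 1 lie at positions 17 to 21.

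The shifted form was the next most abundant, at 145 reads in library 1 and 114 in library 2. It has the same length of 21 nt as the leading form but begins 2 bases earlier and ends 2 bases earlier on the hairpin. It ranked 39 among the sequences with reads, at 0.15% ± 0.0053 of listed reads (SD, n = 2). A registered sequence that begins at the same place is quoted in the table for MIR166b of asparagus.
Registered asparagus sequence: tCTCGGACcaggcttcattct
Counted from its 5′ end, the shifted form differs from it by T21C.

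The position 17 form had 103 reads in library 1 and 87 in library 2, at 0.11% ± 0.0096 of listed reads (SD, n = 2). It differs from the leading form by T17C, counted from 1 at the 5′ end, the difference that separates miR165 from miR166 in Arabidopsis. The deposited name is rice miR166a-3p with 1 substitution, and none of the 16 lines carries miR165 in its name. A MIR165 hairpin was nevertheless among the registered hairpins matched on 8 lines with 6 sequences, the leading form included. Relative to the leading form, the position 17 form stood at 2.43% in library 1 and 2.73% in library 2. In other families, 12 sequences from 9 families differed from their own leading sequence by 1 substitution at equal length. They stood at a median of 3.82% of it in library 1 (lowest 0%, highest 80%) and 5.62% in library 2 (lowest 0%, highest 90.9%). The highest value in both libraries was that of miR5072, proposed to be an rRNA or tRNA fragment, with 12 reads in library 1 and 10 in library 2. The position 17 form lay within these ranges, but they are too wide to place it, and no test was made.

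The remaining forms were rare and differ from the leading one at the 3′ end. The position 21 form, which carries C21A, had 21.5 reads in library 1 and 8 in library 2. Its fractional value stands on a single line, so for this form the division of reads over lines is not fully resolved. The short form, which lacks the last 2 bases, had 6 reads in library 1 and 5 in library 2. The asparagus-type form had 18 reads in library 1 and a listed 0 in library 2, while the melon-type form was listed at 0 in library 1 and had 5 reads in library 2. Both are 20 nt long. The melon-type form carries C18T relative to the registered melon sequence. The asparagus-type form carries C18T relative to a 3p strand of the asparagus MIR166b hairpin, which is not the registered asparagus sequence shown above. Against the leading form the asparagus-type sequence carries C18T, C19T and C20T, and the melon-type sequence C18T and C19T. With these few reads, no order between the rare forms was drawn.

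The 3 sequences listed at 0 in both libraries all differ from the leading form at position 20. The rice g-type form (rice miR166g-3p) carries C20T, the Brachypodium j-type form C20T and C21T, and another form C20A. The first 2 are registered mature sequences of those grasses. No upper limit is given for their share, because the list may have a minimum.

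**Figure D2:**
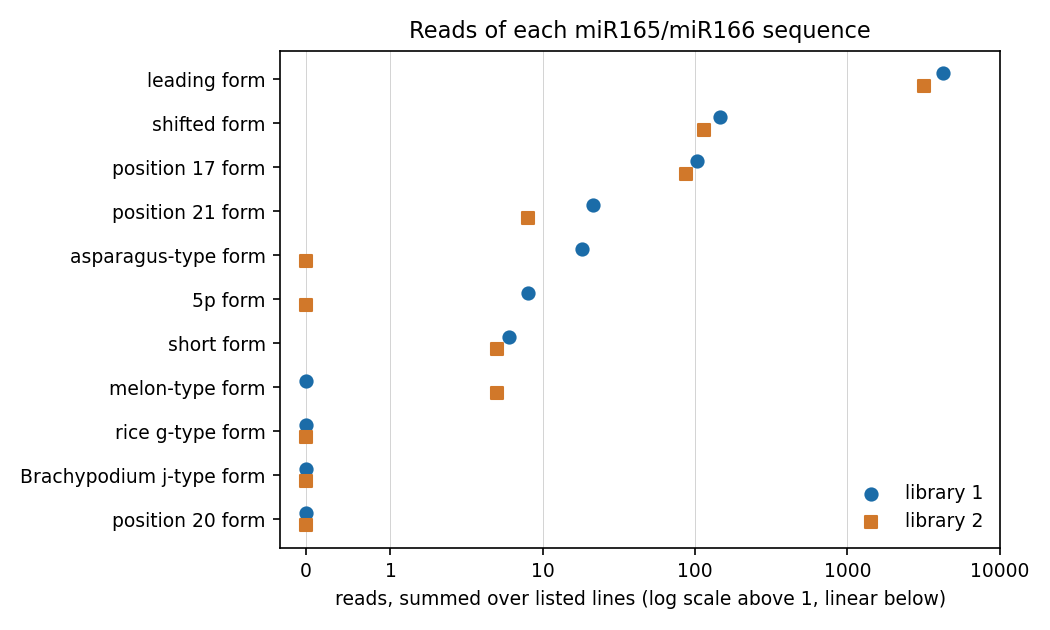
Reads of each of the 11 sequences, summed over listed lines, on an axis that is logarithmic above 1 read and linear below, with circles for library 1 and squares for library 2. The leading form lies at 4247 and 3182 reads, the shifted form at 145 and 114, and the asparagus-type, 5p and melon-type forms have a 0 in 1 library each.

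The 2 libraries were compared by a two-sided exact binomial test on every sequence of the table with at least 10 reads in total, with Benjamini-Hochberg adjustment over the table. Of 153 sequences tested, 20 were called at an adjusted p under 0.05, which is 13.1%. Of the 6 family members tested, 1 was called, a count that is not set apart from the share over the table. This was the asparagus-type form, with 18 reads in library 1 against a listed 0 in library 2 (adjusted p = 0.00074, exact binomial test). The test takes PCR copies as independent reads, so its p-values cover counting error alone and may be too small, and the 0 may lie under a minimum of the list. The leading form (adjusted p = 1, exact), the shifted form (0.97), the position 17 form (0.80), the position 21 form (0.36) and the short form (1) were not called. The 5p and melon-type forms had too few reads for the test. The test compares the reads of these 2 libraries and no other preparations, and a p above the threshold does not show equal shares. For the shifted form the log2 ratio of library 1 over library 2 was -0.073 with an interval from -0.43 to 0.30. For the position 17 form it was -0.18 with an interval from -0.60 to 0.26.

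Lengths and first bases were nearly uniform. Sequences of 21 nt held 99.5% of the family's reads in library 1 and 99.7% in library 2. The 20-nt forms held 0.40% in library 1 and 0.15% in library 2, and the 19-nt form 0.13% in library 1 and 0.15% in library 2. All 7 sequences of the 3p arm with reads begin with T, and the 5p form begins with G.

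The 3p arm carried 4540.5 reads in library 1 and 3401 in library 2. The 5p form had 8 reads in library 1, which is 0.18% of the family (exact Clopper-Pearson 95% interval 0.076% to 0.35%), and none were listed for library 2. Its first deposited name is rice miR166h-5p with G10T, but the same letters stand as a registered strand in the hairpin of rice MIR166d quoted in the table. Among the 16 other families with reads on both arms, the lesser arm held a median of 12.0% in library 1 (lowest 0.11%, highest 48.1%). Families with reads on 1 arm alone were left out, such as miR167 and miR482/miR2118, where the lesser arm held 0% in both libraries. Among the 16 that were kept, 1 family, miR535, had a smaller share in library 1. This order was not tested, and arms follow the deposited labels, which were not checked, as for miR319 at 46.6%. The 16 include entries proposed to be rRNA or tRNA fragments, for which arms may have no meaning. Their lesser arms in library 1 were miR2916 at 39.0%, miR5368 at 38.9%, miR6478 at 25% and miR6300 at 10.2%. The median is therefore not that of miRNA strands alone.

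The table placed the family on 13 hairpins of a genome, whose species and assembly the sources used here do not name. It may therefore not be that of turmeric. They lie on 11 contigs, 3 of them on the same contig, with 7 on the plus and 6 on the minus strand, and whether any lies in an annotated gene was not analysed here. They were 102 to 162 bases long (median 130). The free energies that the authors deposited ran from -73.8 to -39 kcal/mol with a median of -57.4. The 190 hairpins of other registered families had a median of -35.8, but ran from -90.6 to -0.8 and so included weakly folded entries. The deposited free energy index, which corrects for length and GC percent, ran from 0.7 to 1.1 with a median of 0.9. For the others it ran from 0.1 to 1.3 with a median of 0.7, and the ranges overlap. Within the 21 bases of the 3p strand, 3 or 4 bases were unpaired in the deposited structure of every hairpin. These are properties of the deposited hairpins, whatever their reads, and no test was made between them.

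The hairpin to which the leading form was assigned spans bases 272395658 to 272395787 on the plus strand of its contig and is shown with the leading form in capitals.
Hairpin 8: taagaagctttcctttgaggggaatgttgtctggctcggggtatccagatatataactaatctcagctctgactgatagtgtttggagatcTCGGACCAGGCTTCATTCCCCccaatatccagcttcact
A hairpin with lines for both arms spans bases 220 to 370 on the plus strand of another contig, with the 5p form and the letters of the leading form in capitals.
Hairpin 2: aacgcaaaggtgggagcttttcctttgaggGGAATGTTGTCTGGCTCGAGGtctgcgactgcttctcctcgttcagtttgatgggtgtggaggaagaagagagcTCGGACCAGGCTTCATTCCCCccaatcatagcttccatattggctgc
The hairpin to which the asparagus-type form was assigned spans bases 8278 to 8396 on the plus strand of its contig, and the capitals mark its 3p strand, which ends differently from that of the other hairpins.
Hairpin 4: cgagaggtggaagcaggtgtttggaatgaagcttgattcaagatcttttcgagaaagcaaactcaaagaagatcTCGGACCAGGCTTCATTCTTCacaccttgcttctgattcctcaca

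Although the leading form was listed on 1 line, its 21 letters stand in 8 of the 13 hairpins. Its reads therefore do not tell which of these loci, if any, made them. The 4247 and 3182 reads on hairpin 8 are the table's assignment. The shifted form was listed on 2 hairpins but stands in 9, and the 5p form was listed on 2 but stands in 4. In each of those 4 hairpins the 5p form and the 3p strand formed a duplex with a 2-base overhang at both 3′ ends, read from the deposited structure, the geometry that Dicer-like enzymes leave. The short form stands in 12 of the 13.

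The other 5 hairpins lack the letters of the leading form. In 4 of them the 3p strand ends in cctc, as in rice miR166g-3p, and in hairpin 4 it ends in cttc. The lines on these 5 hairpins held 22 reads in library 1, which were 18 of the asparagus-type form and 4 of the 5p form, and were listed at 0 in library 2. The lines on the 8 hairpins with the leading form held 4526.5 reads in library 1 and 3396 in library 2. The full-length strand that 4 hairpins encode, tCGGACCAggcttcattcctc, was itself listed at 0 in both libraries.

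**Figure D3:**
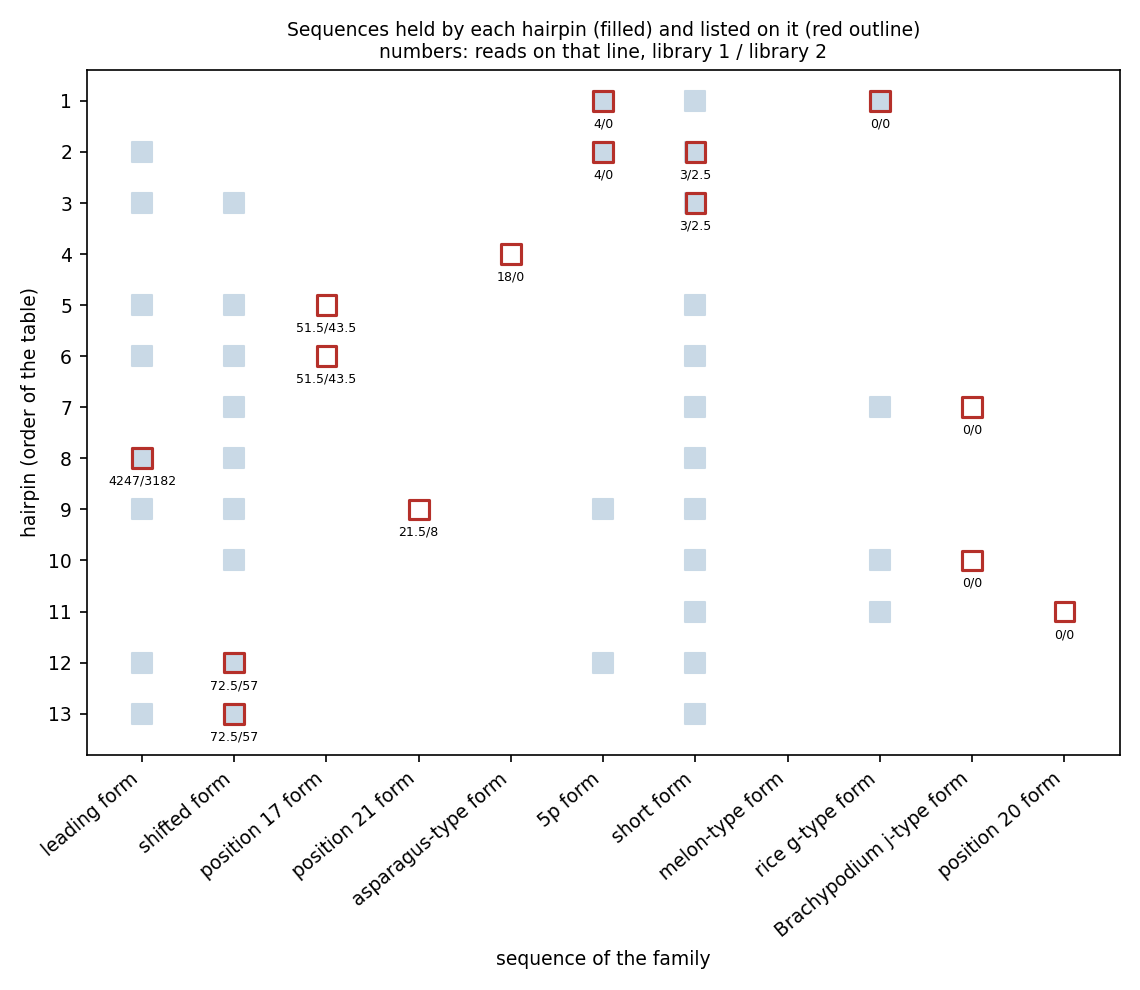
Hairpins in rows in the order of the table and the 11 sequences of the family in columns, with a filled square where a hairpin holds the letters of a sequence and a red outline where the table lists it, with the reads of library 1 and library 2 on that line. The leading form fills 8 rows but is outlined in 1, with 4247 and 3182 reads, and 5 sequences outlined on hairpins 4 to 11 have no filled square there.

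Some sequences stand in none of the 13 hairpins. The position 17, position 21, asparagus-type and melon-type forms together had 142.5 reads in library 1 and 100 in library 2, which is 3.13% of the family in library 1 and 2.94% in library 2. All 13 hairpins hold the first 17 bases of the leading form, T at position 17 included, and both hairpins that list the position 17 form differ from it there by T17C. The hairpin that lists the position 21 form differs from it by C21A, and the one that lists the asparagus-type form by C18T. The search covered these 13 hairpins and not the turmeric genome, and the source of these letters was not tested.

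The 13 hairpins held 3 distinct 21-base strands on the 3p arm, which differ in the last bases, and 7 distinct 21-base strands on the opposite 5p arm. Hairpins entered the table by their match to a family sequence, mostly one of the 3p arm, and the 3p strand was located by the first 17 bases of the leading form. The likeness of the 3p strands was therefore largely set by that choice, and the counts of the 2 arms are given as a description without a comparison. Hairpins 3 and 6 differ by 1 base over their 102 shared bases, and copies, alleles and a duplicated contig cannot be told apart here.

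Set beside the rest of the table, the family was concentrated on 1 sequence. Its leading form held 93.5% ± 0.13 of its reads (SD, n = 2). Among 16 other families with at least 3 sequences with reads, the leading sequence held a median of 56.6% of the family (lowest 17.3%, highest 94.8%). In 1 of them, miR159, it held more. The 16 include the fragment entries miR6300 (17.3%), miR2916 (39.8%), miR5368 (46.0%) and miR6478 (56.1%). Of the families with 2 sequences with reads, miR162 (99.3%), miR394 (95.2%) and miR169 (94.4%) also held more, and the others held at most 90.9% (miR160). This order was not tested, since with 2 libraries the smallest p of an exact sign-flip test, two-sided, is 0.5.

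**Figure D4:**
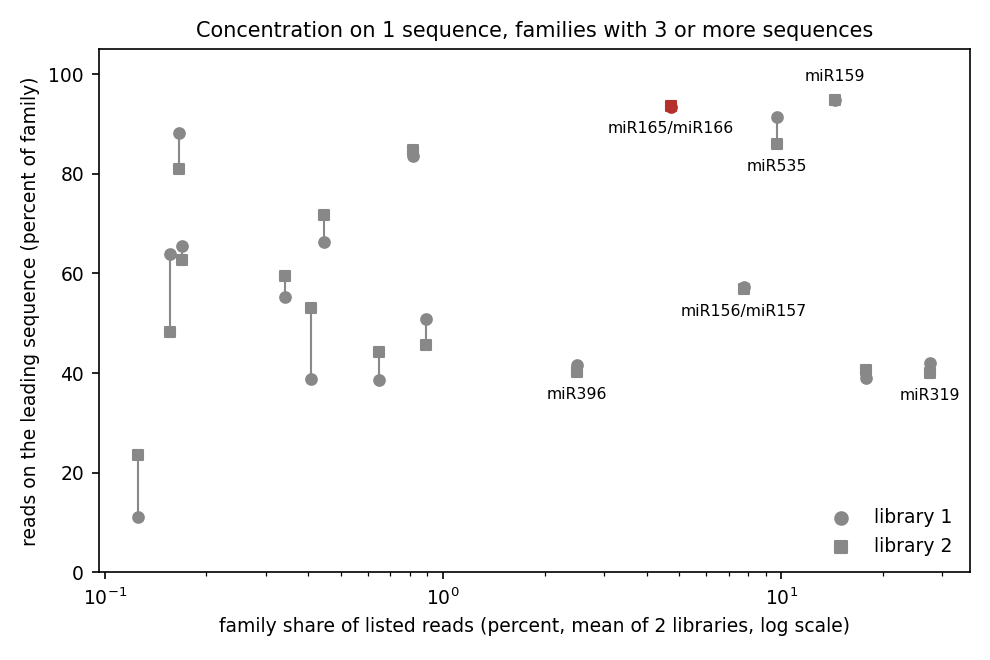
Share of each family's reads on its leading sequence, in percent, against the family's share of listed reads on a log axis, for families with at least 3 sequences with reads, with circles for library 1 and squares for library 2. The miR165/miR166 family (red) lies at 93.4% in library 1 and 93.6% in library 2, near miR159 and above the median of 56.6% of the other families.

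By level, the families nearest to miR165/miR166 were found from the distance between pairs of log2 shares over the 2 libraries. miR156/miR157, which targets SPL genes, was nearest at a distance of 1.02, followed by miR396 at 1.30 and miR535 at 1.48. The family's share was 0.62 times that of miR156/miR157 in library 1 and 0.59 times in library 2. It was 1.95 times that of miR396 in library 1 and 1.83 times in library 2. By mean share miR165/miR166 ranked 6 of 43 families, and in both libraries its share lay between those of miR156/miR157 and miR396. With 2 libraries the distance describes level alone.

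Other families that act on leaf polarity, meristem or root patterning genes were taken as a list of 8, of which 7 had reads, summing to 33.3% of listed reads in library 1 and 31.5% in library 2. miR390, which triggers the tasiRNAs that keep auxin response factor genes to the lower side of the leaf, had no line in the entries used here. miR394, a mobile signal for stem cell competence in the Arabidopsis shoot meristem, held 0.28% in library 1 and 0.25% in library 2. miR160, which targets auxin response factor genes, held 0.23% in library 1 and 0.17% in library 2. Most of the sum came from miR319, which targets TCP genes, at 28.6% in library 1 and 26.6% in library 2. Of the 39 sequences of these families tested between libraries, 3 were called, 2 higher in library 1 and 1 higher in library 2. Among all 153 sequences tested, 20 were called (13.1%), 10 higher in library 1 and 10 higher in library 2, and nothing particular to the list was read from its count.

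An entry named miR2916, proposed to be a ribosomal RNA fragment, also lists asparagus MIR166b among its matched hairpins. It had 5366 reads in library 1 and 3546 in library 2, more than the whole family, and shares neither the letters nor the name of miR165 or miR166, so it was not counted as a member.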

How the data were processed

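Per the labels' protocols, total RNA was extracted with a miRNeasy kit and made into TruSeq small RNA libraries that were run on a HiSeq. CASAVA 1.8.4 and cutadapt 1.10 are named, with no role, per the submitters' processing notes. Per the file headers, the authors matched reads to plant miRNAs and hairpins of miRBase and placed hairpins on a genome. The sources used here give no miRBase release, aligner or genome assembly.

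The deposited raw column is an expected count of reads per line, with reads divided over the listed lines of a sequence. The lines do not cover every hairpin with its letters, since the leading form stands in 8 hairpins but on 1 line. Because of the division, lines of a sequence were summed, and sums were rounded to whole reads for tests and intervals. The authors' normalized signal was used as an alternative. Hairpin free energy and its index (a score) and GC percent are the authors' deposited values. Of 278 lines, 12 are empty here and were not analysed, and 2 value columns match no sample of this series and entered no step.

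Family followed the first name of a sequence. The family and the lists were chosen with earlier results of these data known. All members were accounted for, the 6 with most reads in full. The nearest families were the 3 at the smallest distance in log2 share. Hairpin windows, duplex ends and substitutions were computed from the deposited sequences and structures. Shares are mean ± SD over 2 libraries. The exact binomial test with Benjamini-Hochberg adjustment was tested on simulated data (Python 3.11.15, scipy 1.17.1). The simulated reads were independent counts without PCR copies, so that run cannot tell whether the p-values here are too small.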

Additional observations from a re-analysis of the deposited data

How the results depend on the processing

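With a single line's value per sequence in place of the sum, the family held 6.78% of listed reads, its leading form 6.53% of listed reads and 96.3% of the family, exact registered forms 96.3%, and 12 sequences differed between libraries. This follows from how that setting is built, since the leading form stands on 1 line and many other sequences on 2. The family held 4.996% among registered names and 5.79% without fragment families, where the denominator is smaller. With members of at least 10 reads the family held 4.71% and its leading form 93.6% of the family. Exact forms here are those whose first deposited name carries no change, which leaves out the 5p form. Counting any registered sequence that the authors quote gave 93.55% of the family. The position 17 form, which carries the T17C that separates miR165 from miR166 in Arabidopsis, is counted in neither. Registered sequences that the authors do not quote were not searched, so these shares may miss registered forms. Testing all sequences with reads called 23, and the asparagus-type form was called in each of the 3 alternative settings. That form stands on 1 line, so each setting tested the same 18 reads against a listed 0 and was no separate check. Single libraries gave 4.71% to 4.72% for the family, 4.41% to 4.41% for the leading form, 93.4% to 93.6% within the family and for exact forms, 99.8% to 100% for the 3p arm and 0% to 0.18% for the 5p arm. Since either of 2 values always lies closer to their mean than 1 SD, these ranges say nothing of stability. The normalized signal changed no share to any printed digit, as follows where each library is scaled by 1 factor, so it was no separate check. A pseudocount of 10 reads lowered the log2 ratio of the asparagus-type form to 1.07, against 3.83 with 1 read. The list total is not the depth, so shares are of listed reads. No paired analysis was possible because the design has a single group.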
